A study of Homo sapiens with 9 samples.

Results

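The genes described here are the PDGF receptors and ligands, namely *PDGFRA*, *PDGFRB*, *PDGFRL*, *PDGFA*, *PDGFB*, *PDGFC* and *PDGFD*. They are 7 of the 28395 genes in the deposited count table and were picked out by their NCBI gene identifiers. The family was chosen by its measured levels in these same libraries, so its differences between the cell lines are given as a description, without a test. RNA was sequenced from 3 renal cell lines grown in Plasmax, a culture medium modelled on human plasma. HK2 is a line of normal kidney proximal tubule, and 786-O comes from a primary clear cell renal cell carcinoma (ccRCC) and is known to lack functional VHL. 786-M1A is a derivative of 786-O recovered from lung metastases after injection of the cells in vivo, so it is a single selected population of the same origin. There were 3 libraries per line, with no treatment of the cells, and the counts on genes totalled 30212291 in the shallowest library and 45362428 in the deepest.

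Platelet-derived growth factors are dimers that bring together pairs of receptor tyrosine kinases. PDGF-A and PDGF-C act mainly through PDGFRα, PDGF-B binds both receptors, and PDGF-D acts mainly through PDGFRβ. The active receptors recruit PI3K, PLCγ, SHP2 and the GRB2 and SOS adaptors to their phosphorylated tyrosines and feed the RAS to ERK pathway. In the kidney the receptors are known from mesangial cells, pericytes and fibroblasts rather than from tubular epithelium, and the ligands are made by epithelial and endothelial cells.

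Levels are given as CPM, the usual count of a gene relative to the size of its library, here with edgeR's TMM factors applied to the totals. The smallest amount that the depth shows was set at 3 counts, which is between 0.0661 and 0.0993 CPM depending on the library and covers counting error only. Of the family, 5 genes reached a mean of 50 counts over the 9 libraries and entered the fit of 12695 genes, and *PDGFRA* and *PDGFRL* did not. *PDGFD* reached it through its HK2 libraries alone. The biological coefficient of variation between libraries of a line was 3.93%, and the 3 comparisons share libraries, since each line takes part in 2 of them.

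The starts of the 2 receptor kinase genes are shown because these genes stand at the opposite ends of the family in 786-M1A. The bases are those before the start site in the RefSeq promoter table of GRCh38.p14, 5′ to 3′ on the strand of the gene, without the bases that GENCODE release 44 places within a transcript. Capitals mark the matches described after them.
*PDGFRB*, chr5:150155873-150156095, minus strand: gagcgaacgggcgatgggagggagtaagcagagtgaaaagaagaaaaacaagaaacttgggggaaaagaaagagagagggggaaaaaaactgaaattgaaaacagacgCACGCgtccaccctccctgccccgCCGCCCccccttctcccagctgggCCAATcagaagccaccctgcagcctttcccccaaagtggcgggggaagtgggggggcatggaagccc
*PDGFRA*, chr4:54229043-54229279, plus strand: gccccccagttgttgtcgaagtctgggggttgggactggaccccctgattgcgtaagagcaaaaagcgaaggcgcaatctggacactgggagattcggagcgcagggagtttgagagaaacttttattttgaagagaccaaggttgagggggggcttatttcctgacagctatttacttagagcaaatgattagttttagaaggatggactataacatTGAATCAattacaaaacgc

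Both strands were searched for the CCAAT box, for the GC box in the form GGGCGG, for the hypoxia response cores ACGTG as well as GCGTG, for a TATA box in the form TATAAA, and for the AP-1 motif TGANTCA. The *PDGFRB* window held CCAAT at -94 from the start site, GGGCGG at -118 and GCGTG at -142, the last 2 on the other strand. CCAAT was present in 32.0%, GGGCGG in 42.6% and GCGTG in 32.2% of 35116 promoters of 250 bases. The *PDGFRA* window held a single match, TGANTCA at -32, a form present in 6.57% of promoters. It reads TGAATCA and is thus not the strict AP-1 motif. The GC content of the *PDGFRA* window was 46.8%, against 58.4% for *PDGFRB* and a median of 58.0% over all promoters. Of the 7 genes, 4 had an entry in the promoter table, and *PDGFRL*, *PDGFB* and *PDGFC* did not. These matches describe letters and are no measure of binding, which was not assayed in these data.

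*PDGFRB* encodes the receptor β, a kinase that marks pericytes and other mural cells (NCBI gene 5159, chromosome 5, 150113839 to 150155845, minus strand). In HK2 its libraries had 5.60, 4.99 and 4.39 CPM, from 174 to 203 counts. In 786-O they had 3.00, 2.29 and 2.51 CPM, from 86 to 133 counts. The level was thus low in both lines, and lower in every 786-O library than in every HK2 library. In 786-M1A the libraries had 279, 282 and 285 CPM, from 10075 to 10811 counts. All 3 lay far above every library of the other lines, and their spread was small, with a mean of 281.9 ± 3.08 CPM (SD, n = 3). The log2 fold change of 786-M1A compared to 786-O was 6.75 (standard error 0.071), a 107.8-fold difference, and was the highest of the 12695 genes in the fit. Against HK2 it was 5.83 (standard error 0.065), which ranked 113 from the highest, and 786-O differed from HK2 by -0.92 (standard error 0.10). Of the genes tested, 2.03% were called at least 2-fold higher in 786-M1A than in 786-O. In RNA from whole cultures, more cells with the transcript and more of it per cell cannot be told apart.

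**Figure D1:**
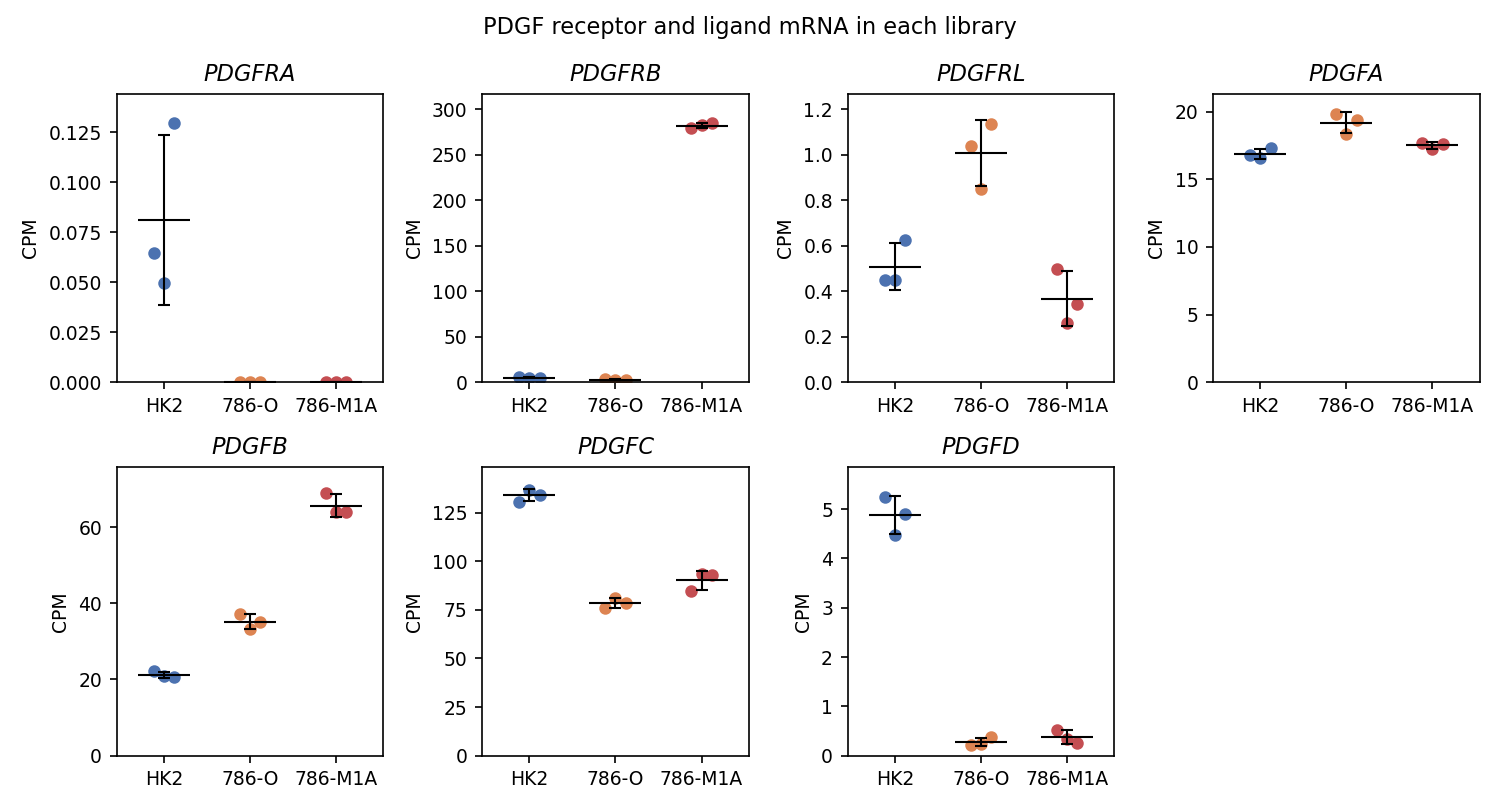
CPM of the 7 genes in each library, by cell line, each panel on its own linear axis from 0; points are the 3 libraries of a line, the horizontal line is their mean and the bars are 1 SD. *PDGFRB* stood at 281.9 CPM on average in 786-M1A against 2.60 CPM in 786-O, *PDGFB* was higher in each line from HK2 through 786-O to 786-M1A, and *PDGFD* was near 0 in both ccRCC lines.

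*PDGFRA* encodes the receptor α, the other PDGF receptor kinase and a marker of fibroblasts (NCBI gene 5156, chromosome 4, 54229293 to 54298245, plus strand). Its HK2 libraries had 2, 2 and 6 counts, and 1 of them was thus above the floor of 3 counts. All 6 libraries of 786-O and 786-M1A had 0 counts, which allows up to 3 counts, or between 0.0675 and 0.0805 CPM. *PDGFRA* mRNA was therefore not detectable at this depth in the cancer lines, and no fold is given. The receptor kinase mRNA measured in 786-M1A was that of *PDGFRB*.

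*PDGFRL* encodes a secreted protein that resembles the extracellular part of the receptors and has no kinase (NCBI gene 5157, chromosome 8, 17576433 to 17643144, plus strand). The HK2 libraries had 14, 18 and 29 counts, those of 786-O 46, 32 and 48 counts and those of 786-M1A 18, 10 and 13 counts. The 786-O libraries were the highest, at 1.01 ± 0.144 CPM (SD, n = 3), and overlapped with neither of the other lines, whereas HK2 and 786-M1A overlapped. Without the filter on low counts, the log2 fold change of 786-M1A compared to 786-O was -1.46 (standard error 0.27). The 3′ end of *PDGFRL* overlaps with *MTUS1* on the opposite strand in GENCODE release 44. *MTUS1* had 91 to 154 counts in HK2, 1010 to 1252 counts for 786-O and 921 to 1003 counts for 786-M1A. The strand setting of the counting is not given in the sources used here, so the few *PDGFRL* counts are uncertain to that extent.

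*PDGFB* encodes the B chain, the ligand that binds both receptors (NCBI gene 5155, chromosome 22, 39223359 to 39244982, minus strand). The HK2 libraries had 22.2, 21.0 and 20.7 CPM, those of 786-O 37.3, 33.2 and 35.0 CPM and those of 786-M1A 69.0, 64.0 and 63.9 CPM. No library of any line overlapped with another line, and the order was HK2, 786-O, 786-M1A from low to high. The log2 fold change was 0.73 (standard error 0.054) in 786-O compared to HK2, 1.63 (standard error 0.053) in 786-M1A compared to HK2 and 0.90 (standard error 0.050) in 786-M1A compared to 786-O. In 786-M1A, *PDGFB* was thus 3.09-fold the level in HK2, and it ranked 582 from the highest of the fit in that comparison. The line with the most *PDGFRB* mRNA was the one with the most *PDGFB* mRNA, while 786-O had more *PDGFB* and less *PDGFRB* than HK2.

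*PDGFD* encodes the D chain, a ligand of receptor β that is secreted in a latent form (NCBI gene 80310, chromosome 11, 103907189 to 104164147, minus strand). Its HK2 libraries had 5.25, 4.47 and 4.91 CPM, from 163 to 227 counts. The 786-O libraries had 0.226, 0.239 and 0.378 CPM and those of 786-M1A 0.526, 0.339 and 0.264 CPM, from 9 to 19 counts in all 6. Both cancer lines were far below HK2 and overlapped with each other. Compared to HK2 the level was 17.1-fold lower in 786-O (log2 fold change -4.09, standard error 0.19) and 12.9-fold lower in 786-M1A (log2 fold change -3.69, standard error 0.18). Between the cancer lines the log2 fold change was 0.41 with a standard error of 0.34. *DDI1*, which lies on the opposite strand within *PDGFD*, had 0 counts in every library.

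*PDGFC* encodes the C chain, also secreted in a latent form and a ligand of receptor α (NCBI gene 56034, chromosome 4, 156760454 to 156971799, minus strand). It was the most abundant of the family in HK2, with 131, 137 and 134 CPM. The 786-O libraries had 76.0, 81.0 and 78.6 CPM and those of 786-M1A 84.7, 93.2 and 92.9 CPM. Both cancer lines were below HK2 without overlap, by log2 fold changes of -0.77 (standard error 0.043) in 786-O and -0.57 (standard error 0.043) in 786-M1A. The 786-M1A libraries lay slightly above those of 786-O, by 0.20 on the log2 scale (standard error 0.044).

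*PDGFA* encodes the A chain, a ligand of receptor α (NCBI gene 5154, chromosome 7, 497258 to 520700, minus strand). It differed least of the 5 genes in the fit. The HK2 libraries had 16.8, 16.6 and 17.3 CPM, those of 786-O 19.8, 18.3 and 19.4 CPM and those of 786-M1A 17.7, 17.2 and 17.6 CPM. The 786-O libraries were the highest, and those of HK2 and 786-M1A overlapped. The log2 fold changes were 0.18 (standard error 0.055) in 786-O compared to HK2, 0.05 (standard error 0.056) in 786-M1A compared to HK2 and -0.13 (standard error 0.055) in 786-M1A compared to 786-O. The ligands of receptor α were therefore present as mRNA in all 3 lines, whereas the mRNA of receptor α was at or near 0.

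The 5 genes in the fit are best read against all 12695. Between 786-O and HK2 the libraries of all 5 did not overlap, as was the case for 85.5% of the genes tested, and 84.2% of these genes were called at an adjusted p-value under 0.05. *PDGFD* was at least 2-fold lower in 786-O and none of the 5 was 2-fold higher, against 13.1% of all genes called 2-fold lower and 9.18% called 2-fold higher. Between 786-M1A and HK2, 4 of the 5 did not overlap, as did 85.0% of genes, and 84.9% were called. *PDGFRB* and *PDGFB* were at least 2-fold higher and *PDGFD* at least 2-fold lower, against 10.4% and 15.0% of all genes. Between 786-M1A and 786-O, 4 of the 5 did not overlap, as did 61.6% of genes, and 56.0% were called. *PDGFRB* alone of the 5 differed by 2-fold there, against 2.03% called higher and 4.55% called lower. These differences chose the family, so nothing is read from its counts.

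**Figure D2:**
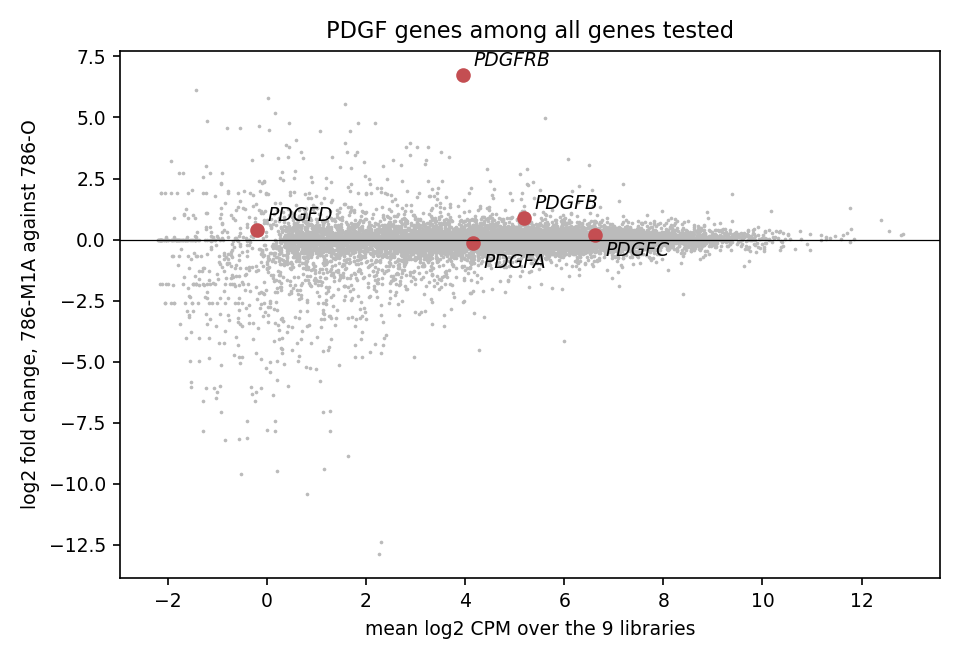
Log2 fold change of 786-M1A compared to 786-O against the mean log2 CPM over the 9 libraries for the 12695 genes of the fit (grey) and the 5 PDGF genes among them (red). *PDGFRB*, at 6.75, is the highest point of the plot, while *PDGFA*, *PDGFB*, *PDGFC* and *PDGFD* lie between -0.13 and 0.90.

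Levels of different genes were compared per length, as CPM per kb of the exons of each gene in GENCODE release 44. In HK2 the order was *PDGFC* at 22.3 ± 0.515 (SD, n = 3), *PDGFB* at 5.33 ± 0.197, *PDGFA* at 3.68 ± 0.0819, *PDGFD* at 1.14 ± 0.0914, *PDGFRB* at 0.700 ± 0.0851 and *PDGFRL* at 0.210 ± 0.0425, with *PDGFRA* last. No neighbours in this order overlapped. In 786-O the order began with *PDGFC* at 13.1 ± 0.417, *PDGFB* at 8.81 ± 0.509 and *PDGFA* at 4.18 ± 0.169. *PDGFRL* and *PDGFRB* followed at 0.416 ± 0.0597 and 0.364 ± 0.0513 and overlapped with each other. In 786-M1A the order was led by *PDGFRB* at 39.5 ± 0.431. *PDGFB* came next at 16.4 ± 0.737 and *PDGFC* at 15.1 ± 0.801, whose libraries did not overlap although their means differed by less than 2 SD. *PDGFA* had 3.82 ± 0.0544 in 786-M1A, and *PDGFRL* and *PDGFD*, at 0.152 ± 0.0498 and 0.0883 ± 0.0316, overlapped. Receptor β mRNA thus went from below the 3 more abundant ligands in HK2 and 786-O to above every ligand in 786-M1A.

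**Figure D3:**
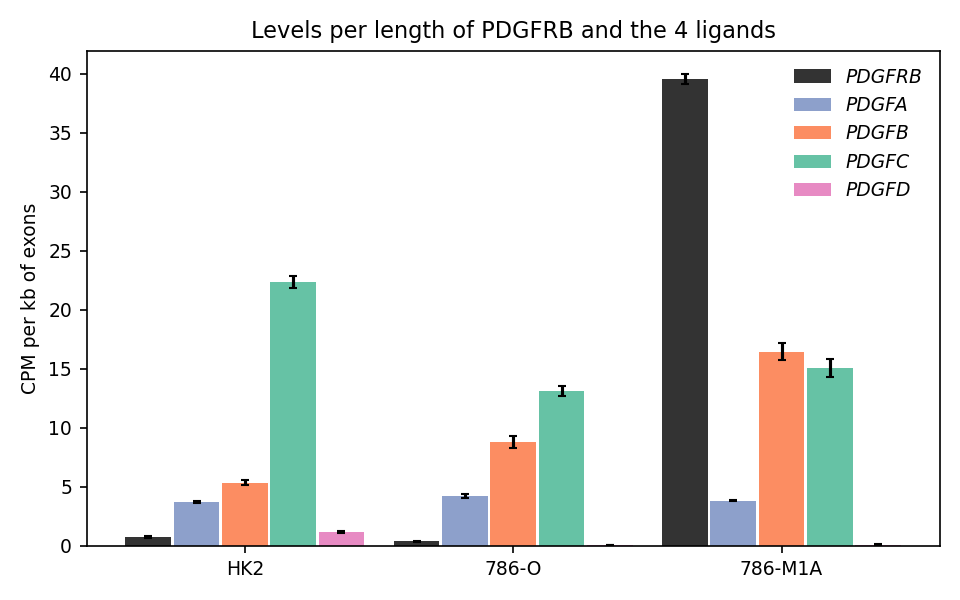
Levels of *PDGFRB* and the 4 ligands in CPM per kb of exons, by cell line, as means of 3 libraries with bars of 1 SD. *PDGFRB* is at 0.700 for HK2, 0.364 for 786-O and 39.5 for 786-M1A, and *PDGFB* is below *PDGFC* in HK2 and 786-O and above it in 786-M1A.

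The makeup of the ligand mRNA also differed between the lines. On the per-length scale the 4 ligands summed to 32.5 ± 0.259 CPM per kb in HK2 (SD, n = 3), to 26.2 ± 0.255 for 786-O and to 35.4 ± 0.00632 for 786-M1A. *PDGFC* made up 68.7% ± 1.04 of this sum in HK2, 50.1% ± 2.08 of that of 786-O and 42.5% ± 2.27 of that of 786-M1A. *PDGFB* made up 16.4% ± 0.708, 33.7% ± 1.63 and 46.4% ± 2.08, respectively. *PDGFB* and *PDGFC* thus made up most of the ligand mRNA in each line, with *PDGFC* ahead in HK2 and with similar shares in 786-M1A. *PDGFD* made up 3.52% ± 0.309 in HK2, and 0.252% for 786-O and 0.249% for 786-M1A. The ratio of *PDGFRB* to the ligand sum was 0.0216 ± 0.00272 for HK2, 0.0139 ± 0.00183 for 786-O and 1.12 ± 0.0123 for 786-M1A. Without the division by length, the 4 ligands summed to 177, 133 and 174 CPM on average in HK2, 786-O and 786-M1A. *PDGFC* was then above *PDGFB* in 786-M1A, at 90.3 against 65.6 CPM. The order of HK2 and 786-M1A in the sum, and that of *PDGFB* and *PDGFC* in 786-M1A, thus depend on the lengths used, which take in all annotated exons of a gene.

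The cell types that usually carry *PDGFRB* were checked by their other markers, from lists that leave it out. The 8 mural cell genes summed to between 317 and 344 CPM in HK2, between 116 and 120 CPM for 786-O and between 70.9 and 73.8 CPM in 786-M1A. Of them, *NOTCH3*, the receptor that defines arterial mural cells, was at 0 counts in all 786-M1A libraries, and *KCNJ8*, a potassium channel gene of pericytes, had 2 to 5 counts. The sum was carried by *MCAM*, an adhesion molecule gene, at 208, 98.6 and 54.9 CPM on average in HK2, 786-O and 786-M1A, and in HK2 also by *NOTCH3*. Others of the list ran differently. *ACTA2*, the smooth muscle actin gene, averaged 0.891 CPM in HK2, 2.60 CPM for 786-O and 4.45 CPM for 786-M1A, and *RGS5* averaged 22.7, 4.09 and 4.76 CPM. *ABCC9* was present in all 3 lines, at 10.1, 9.22 and 7.88 CPM in the same order. The line with the most *PDGFRB* thus had the lowest sum of mural markers but the highest *ACTA2*. The 6 fibroblast genes summed to between 73.4 and 82.1 CPM in HK2, 279.7 and 348.7 CPM for 786-O and 20.6 and 24.05 CPM for 786-M1A. This sum was carried by *COL1A1*, at 53.8, 292 and 16.5 CPM on average in HK2, 786-O and 786-M1A, and by *LUM*, at 22.5, 14.6 and 5.48 CPM. In 786-M1A the collagen genes *COL1A2* and *COL3A1* and the proteoglycan gene *DCN* had at most 1 count. The 6 endothelial genes summed to at most 0.138 CPM in 786-M1A, with *PECAM1*, *CDH5*, *ERG* and *EMCN* at 0. Of the 4 leukocyte genes, *PTPRC* was at 0 in every line and *CD68* carried the sum, which was 49.1 to 53.7 CPM in HK2, 26.6 to 27.6 CPM for 786-O and 34.2 to 37.6 CPM for 786-M1A.

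The labelled origins were checked in the same way. Of the 10 proximal tubule genes, the endocytic receptor *LRP2* and the transporter *SLC22A6* were at 0 in all 3 lines, and the list summed to between 109 and 115 CPM in HK2, 193 and 199 CPM for 786-O and 107 and 118 CPM for 786-M1A. Of the carcinoma and kidney epithelium list, 9 of 10 genes were in the table, with sums of 2833 to 2940 CPM in HK2, 5790 to 5940 CPM for 786-O and 7701 to 7900 CPM for 786-M1A. *VIM*, an intermediate filament gene of mesenchymal and many cultured cells, averaged 1400, 4851 and 6545 CPM. It carried most of this sum in the cancer lines and was its largest single part in HK2. The epithelial keratins *KRT8* and *KRT18* were lower in both cancer lines than in HK2, at 664, 302 and 385 CPM and at 428, 165 and 186 CPM. *CDH1*, the epithelial cadherin, averaged 4.53 CPM in HK2 and had at most 7 counts in any cancer library. *CA9*, a common ccRCC marker, had at most 3 counts in any library and was at 0 in HK2. Most of the proximal tubule sum came from *GGT1* and *ANPEP*. *GGT1* averaged 108, 80.6 and 88.3 CPM in HK2, 786-O and 786-M1A, and *ANPEP* averaged 1.75, 112 and 19.8 CPM. From the carcinoma and kidney epithelium list, *PAX8* averaged 167, 165 and 182 CPM in the same order. *EGLN3* averaged 1.72, 50.05 and 127.6 CPM. Some markers of proximal tubule and ccRCC were thus absent or nearly absent, while others were present. Their role in the PDGF values was not tested.

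The rest of the pathway was taken from 5 lists with 72 genes, of which 62 were tested. Their differences were tested with edgeR's quasi-likelihood test, adjusted over all 12695 genes. Between 786-O and HK2, 24 of the 62 rose and 35 fell in 786-O, so that 59 of 62 were called where 84.2% of all genes were, with a median log2 fold change of -0.21 against -0.01 over all genes. At least 2-fold differences were found in 7 genes upwards and 14 downwards. Between 786-M1A and HK2, where 84.9% of all genes were called, 22 rose and 35 fell, 7 and 15 of them by at least 2-fold, with a median of -0.19 against -0.02. Between 786-M1A and 786-O, where 56.0% were called, 18 rose and 21 fell, and only *VEGFA* and *GAB1* differed by at least 2-fold, with a median of 0.00 in the lists and over all genes. The share with at least a 2-fold difference was 33.9% and 35.5% in the comparisons with HK2 and 3.23% between the cancer lines, and over all genes it was 22.3%, 25.4% and 6.59%, so that fewer such differences between the cancer lines are a feature of all genes.

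**Figure D4:**
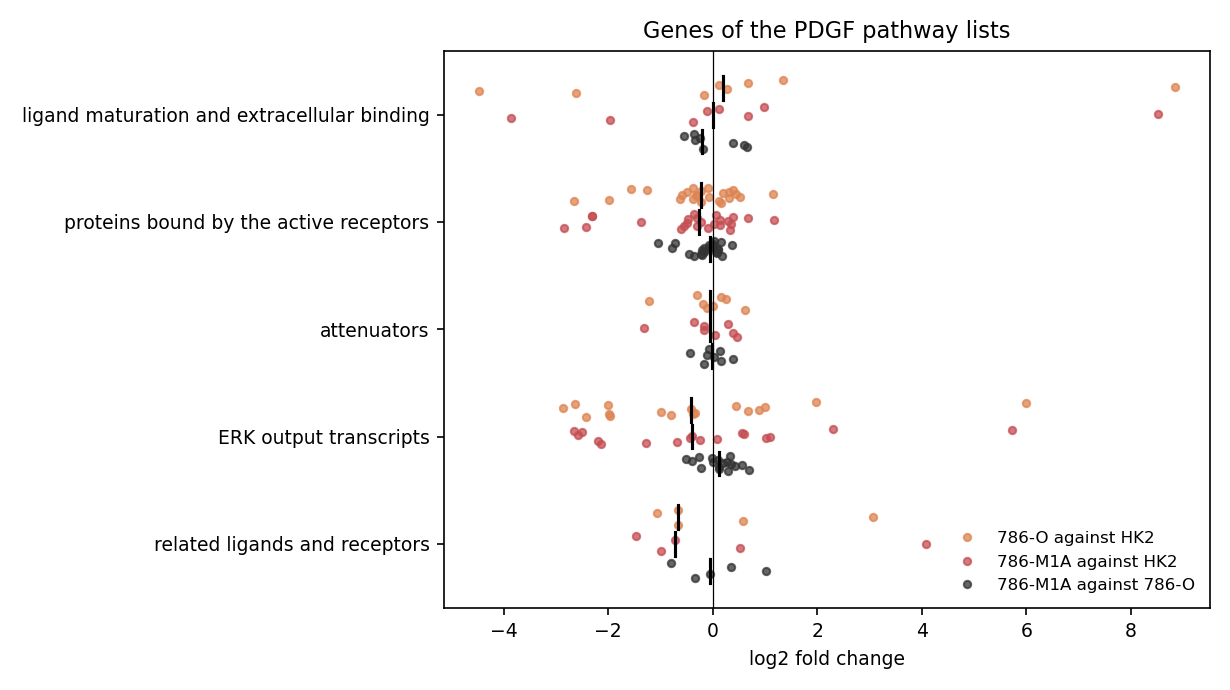
Log2 fold changes of the 62 pathway genes tested, by list and comparison, with each gene as a point and the median of a list as a black bar. Between 786-M1A and 786-O the points lie between -1.04 and 1.02, whereas against HK2 they reach from -4.47 to 8.84.

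Genes of ligand maturation and extracellular binding include the convertases that cut the A and B chains and the plasminogen activators that release PDGF-C and PDGF-D. All 8 genes tested differed between 786-O and HK2, where 84.2% of all genes were called, 5 higher and 3 lower. The convertase gene *PCSK5* had 5 to 6 counts in the HK2 libraries and 63.8 ± 1.92 CPM (SD, n = 3) in 786-O. This is 8.84 on the log2 scale of the fit, which *PCSK5* entered through the cancer lines alone, so it is a description. *FURIN*, the general convertase, rose by 1.34 on the log2 scale (edgeR adjusted p = 1.97e-17). The activators were lower in 786-O, with log2 fold changes of -4.47 for *PLAT*, which cuts PDGF-C (edgeR adjusted p = 8.49e-14), and -2.62 for *PLAU*, which cuts PDGF-D (edgeR adjusted p = 2.23e-22). In 786-M1A compared to HK2, where 84.9% of all genes were called, 3 rose and 4 fell, with *PCSK5* at 8.51, *FURIN* at 0.98, *PLAT* at -3.86 and *PLAU* at -1.97. In 786-M1A compared to 786-O, where 56.0% of all genes were called, 2 rose and 5 fell, none by 2-fold. *PLAU* was the largest rise there, by 0.65 (edgeR adjusted p = 8.48e-11), followed by *PCSK7* at 0.39, and *LRP1*, an endocytic receptor and partner of receptor β, fell by 0.55 (edgeR adjusted p = 0.0198). In these 4 genes, *PCSK5*, *FURIN*, *PLAT* and *PLAU*, both cancer lines differed from HK2 in the same direction.

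Among the 24 genes for proteins bound by the active receptors, 9 rose and 14 fell in 786-O compared to HK2, beside the 84.2% of all genes called. *PIK3R1*, the regulatory subunit of PI3K, rose by 1.15 (edgeR adjusted p = 3.39e-14). *STAT5A*, a transcription factor that can be activated at the receptors, fell by 2.66 (edgeR adjusted p = 5.84e-18). Compared to HK2, 8 rose and 14 fell in 786-M1A, where 84.9% of all genes were called, with *PIK3R1* at 1.16, *NCK2* at 0.67 and *STAT5A* at -2.85. In 786-M1A compared to 786-O, where 56.0% of all genes were called, 4 rose and 10 fell. The docking protein gene *GAB1* fell by 1.04 (standard error 0.082, edgeR adjusted p = 6.43e-10), from 8.46 ± 0.286 CPM to 4.13 ± 0.236 CPM, and had 20.4 ± 0.816 CPM in HK2. The PI3K subunit *PIK3R3* fell by 0.78 (edgeR adjusted p = 1.46e-09), and the adaptor *NCK2* and the kinase *YES1* rose by 0.36 and 0.17.

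Attenuators are the ubiquitin ligases and phosphatases that end the signal. Of 8 tested, 2 rose and 4 fell in 786-O compared to HK2, and 84.2% of all genes were called there. *PTPRJ*, a phosphatase of receptor β, rose by 0.62 (edgeR adjusted p = 3.37e-12). Compared to HK2, 3 rose and 4 fell in 786-M1A, where 84.9% of all genes were called, with *PTPRJ* at 0.46. Between 786-M1A and 786-O, where 56.0% of all genes were called, 2 rose and 2 fell, none by 2-fold. *PTPN12*, a phosphatase, rose by 0.38 (edgeR adjusted p = 3.42e-08), and the ubiquitin ligase *CBLB* fell by 0.43 (edgeR adjusted p = 4.09e-06).

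ERK output transcripts are genes whose mRNA commonly follows ERK activity. Of 17 tested, 6 rose and 11 fell in 786-O compared to HK2, where 84.2% of all genes were called, with a median of -0.41. *CCND1*, which drives entry into the cell cycle, rose by 1.97 (edgeR adjusted p = 1.43e-18). *DUSP4*, an ERK phosphatase, had 1 to 4 counts in HK2 and 123 to 187 counts in 786-O. *ETV4* and *DUSP6*, classical transcriptional readouts of ERK, had log2 fold changes of -2.86 (edgeR adjusted p = 3.26e-19) and -2.64 (edgeR adjusted p = 2.57e-18). Compared to HK2, 6 rose and 10 fell in 786-M1A, where 84.9% of all genes were called, with *CCND1* at 2.30, *ETV4* at -2.58 and *DUSP6* at -2.65. In 786-M1A compared to 786-O, 8 rose and 2 fell with a median of 0.12, and none reached 2-fold. These 10 of 17 are near the 56.0% of all genes called in this comparison. *SPRY2*, a feedback inhibitor, rose by 0.69 (edgeR adjusted p = 3.43e-08) and *IER3* by 0.56 (edgeR adjusted p = 1.97e-10), while *EPHA4* fell by 0.40 (edgeR adjusted p = 6.26e-07) and *MYC* fell by 0.21 (edgeR adjusted p = 3.75e-04). *DUSP6*, at 5.13 ± 0.637 CPM (SD, n = 3) for 786-O and 5.09 ± 0.327 CPM for 786-M1A, differed by less than the spread between libraries. *ETV4* rose by 0.28 (edgeR adjusted p = 0.0182), from 3.59 ± 0.247 CPM for 786-O to 4.38 ± 0.394 CPM for 786-M1A, without overlap of libraries.

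The related ligands and receptors are the VEGF family and the kinases closest to the PDGF receptors. *VEGFA*, the angiogenic ligand that shares the fold of the PDGF chains, averaged 19.4 ± 0.537 CPM in HK2 (SD, n = 3), with 163 ± 11.2 CPM for 786-O and 330 ± 3.44 CPM for 786-M1A. It rose by 3.07 in 786-O compared to HK2 (edgeR adjusted p = 1.11e-22) and by 1.02 in 786-M1A compared to 786-O (standard error 0.043, edgeR adjusted p = 1.51e-14). *VEGFA* and *PDGFB* therefore had the same order of the 3 lines. *VEGFC* was highest in HK2 and lowest in 786-M1A, where it was below 786-O by -0.33 (edgeR adjusted p = 2.74e-06). Of the receptors, only *CSF1R*, the receptor of macrophage colony-stimulating factor, was abundant enough to be tested, and it fell by 0.79 in 786-M1A compared to 786-O (edgeR adjusted p = 2.51e-07). The others are given as counts and were picked after their values were seen. *KDR*, the main VEGF receptor, had 0 to 1 counts in HK2, 3 to 11 counts for 786-O and 33 to 40 counts for 786-M1A. *FLT4*, the receptor of VEGF-C, had 97 to 140 counts in HK2 and at most 3 in the cancer lines, and *KIT*, the receptor of stem cell factor, had 6 to 12 counts in 786-O and at most 2 in the other lines. *PDGFRB* was the one receptor kinase of this group with a mean above 100 CPM in any line.

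*PDGFRB* was then compared with its neighbours on chromosome 5. Of 8 tested genes within 250 kb, none rose and 6 fell in 786-M1A compared to 786-O, where 56.0% of all genes were called, with log2 fold changes from -5.05 to 0.05. *CSF1R*, the nearest of them, lies on the same strand at a gap of 467 bases and averaged 11.5 ± 0.585 CPM in HK2 (SD, n = 3), with 7.25 ± 0.493 CPM for 786-O and 4.19 ± 0.389 CPM for 786-M1A. It thus ran against *PDGFRB* in the cancer lines. *PDE6A*, a phosphodiesterase gene, averaged 0.300, 4.83 and 0.142 CPM in HK2, 786-O and 786-M1A. It entered the fit through its 786-O libraries alone and was near the floor in 786-M1A, so its log2 fold change of -5.05 is a description. *CD74*, the invariant chain of MHC class II, fell by 1.65 in 786-M1A compared to 786-O (edgeR adjusted p = 7.47e-16). *SLC26A2*, *TIGD6* and *HMGXB3* were lower at -0.31, -0.36 and -0.23, and *TCOF1* at 0.05 and the pseudogene *MFFP2* at -0.11 did not pass the test (edgeR adjusted p = 0.357 and 0.478). *MFFP2* lies within *PDE6A* and can share reads with its parent gene, so its counts are uncertain. The difference of *PDGFRB* was thus not shared by the tested genes beside it.

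**Figure D5:**
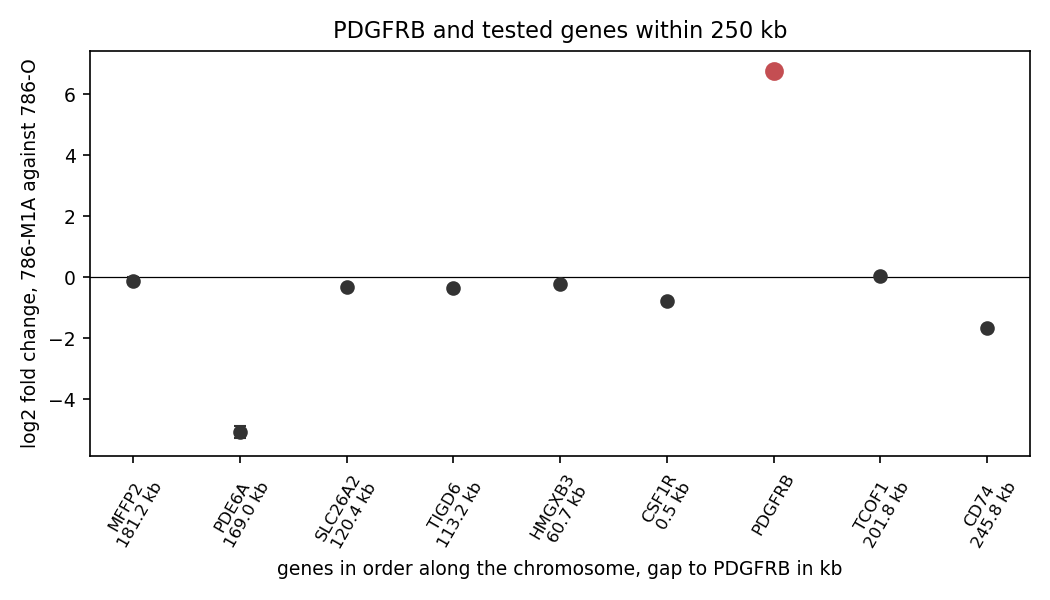
Log2 fold changes of 786-M1A compared to 786-O, with bars of 1 standard error, for *PDGFRB* (red) and the 8 tested genes within 250 kb, in order along the chromosome with their gap to *PDGFRB* in kb. *PDGFRB* stands at 6.75 and its neighbours lie between -5.05 and 0.05, the lowest being *PDE6A*, which entered the fit through its 786-O libraries alone.

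The genes most like each member were found by the root mean square difference of log2 CPM, centred on the mean of the 9 libraries. For *PDGFRB* these were *CXCR4*, a chemokine receptor, at 0.892, *PRUNE2* at 1.17 and *SATB1* at 1.22. *CXCR4* averaged 0.0227 CPM for HK2, 0.0833 CPM for 786-O and 5.81 CPM for 786-M1A, and it was thus near the floor in the first 2 lines. Like *PRUNE2* and *SATB1*, it entered the fit through its 786-M1A libraries alone, so their likeness to *PDGFRB* is a description. For *PDGFB* they were *MPP1* at 0.0704, *MEGF6* at 0.0806 and *IMPDH1* at 0.0946, all higher from HK2 through 786-O to 786-M1A. *PDGFC* was closest to *AP3M2*, *COA7* and *GNPNAT1*, at 0.0475 to 0.0481, and *PDGFA* to *RTN4*, *LASP1* and *GNAS*, at 0.0185 to 0.0380. *PDGFD* was closest to *N4BP3*, *ITGA4* and *NME4*, at 0.239 to 0.263. The distances of *PDGFRB* are the largest of the family, and no other gene of the fit came closer to it than *CXCR4*.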

How the data were processed

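RNA was extracted from HK2, 786-O and 786-M1A cells grown in Plasmax, and the authors prepared TruSeq Stranded mRNA libraries that were sequenced on a NextSeq. The authors counted reads on genes with featureCounts of Rsubread on GRCh38, per the submitters' processing notes and the paper's methods, and deposited raw counts without normalization. The annotation version and the strand setting are not given in the sources used here. The 9 libraries were grouped by their labels, 3 per line. The study's methods describe replicate dishes of each line, more than the 3 per line analysed here, and a legend calls them independent cultures, so p-values measure the spread between dishes of a line.

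Of 28395 gene identifiers, 27745 matched a RefSeq symbol. Those whose counts averaged 50 or more were tested with the robust quasi-likelihood test of edgeR 4.0.16 in R 4.3.3 with TMM factors (0.967 to 1.03), fitting the 3 lines jointly. The Benjamini-Hochberg adjustment covered all 12695 genes, with a threshold of 0.05. Alternatives were DESeq2 1.42.0, RLE and upper-quartile factors, limma 3.58.1 on log2 CPM (prior count 2), no filter, at least 10 counts in every library, fits restricted to a pair of lines, a block for the replicate number, and leaving out each library. The family, the 5 pathway lists and the marker lists were chosen with earlier results of these data known. Of 123 listed genes, 122 were in the table, and *NDUFA4L2* was not analysed here. Named genes were all members, the 2 called genes highest and the 2 lowest in log2 fold change for each list and comparison, the markers, and the 3 genes most like each member in the fit. Single results of some genes within this rule are left out of the text. Neighbours within 250 kb and members' overlaps came from GENCODE release 44, and figures were drawn with Python 3.11.15.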

Additional observations from a re-analysis of the deposited data

How the results depend on the processing

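No value of the PDGF genes or count of pathway genes changed direction under any of the alternatives. The log2 fold change of *PDGFRB* in 786-M1A ran from 6.68 to 6.88 compared to 786-O and from 5.74 to 5.91 compared to HK2, and that of *PDGFB* from 0.87 to 0.95 and from 1.58 to 1.66. *PDGFD* between the cancer lines, at 9 to 19 counts, ran from 0.10 to 0.68, and demanding 10 counts from each library left it out. *PDGFA* in 786-M1A compared to HK2 was 0.0023 with upper-quartile factors. The number of pathway genes called ran from 57 to 65 for 786-O compared to HK2, from 54 to 63 for 786-M1A compared to HK2 and from 36 to 48 for 786-M1A compared to 786-O. The number with at least a 2-fold difference between 786-M1A and 786-O was 4 without the filter on low counts, where *KDR* and *KIT* were added, and 1 to 2 when leaving out single libraries. It was 1 without 786-O replicate 1, where *VEGFA* was lost, and 1 without 786-M1A replicate 2, where *GAB1* was lost, both close to 2-fold. Without the filter the 2-fold differences over all genes were 5410 in place of 2829 for 786-O compared to HK2, 5895 in place of 3220 for 786-M1A compared to HK2 and 1592 in place of 836 for 786-M1A compared to 786-O. With a replicate block, 59, 57 and 40 pathway genes were called, in place of 59, 57 and 39. The labels give only the number, and the deviations of same-numbered libraries correlated between -0.0573 and -0.0285 for 786-O and HK2, between -0.167 and 0.0376 for 786-M1A and HK2 and between 0.0740 and 0.215 for 786-M1A and 786-O. All 3 numbers of this last pair, but 0 and 1 of the others, correlated best with their own number. Depth limits *PDGFRA* and *PDGFRL* most.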

Other observations

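*PDGFA-DT*, a long non-coding RNA gene that runs from the start of *PDGFA* on the other strand, had 5, 3 and 5 counts in HK2, 46, 33 and 48 in 786-O and 28, 19 and 27 in 786-M1A. Its libraries did not overlap between any 2 lines, while those of *PDGFA* itself lay between 16.6 and 19.8 CPM in all 9. It was below the filter on low counts and was not tested, and it was picked after its values were seen.

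Among the tested neighbours of the other members within 250 kb, *SYNGR1* beside *PDGFB* averaged 11.3 CPM for HK2, 0.586 CPM for 786-O and 0.0442 CPM for 786-M1A, opposite in order to *PDGFB*. Of the 9 tested neighbours of *PDGFB*, 5 rose and 1 fell in 786-M1A compared to 786-O, the rises by at most 0.84. Over all genes tested, 56.0% were called in that comparison. *SLC7A2*, an amino acid transporter gene beside *PDGFRL*, averaged 13.6 CPM for HK2, 10.2 CPM for 786-O and 0.354 CPM for 786-M1A (log2 fold change -4.83 compared to 786-O, edgeR adjusted p = 1.84e-11). These neighbours were picked after their values were seen.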
